A study of Epimedium pubescens with 12 samples.

Results

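Enzymes of starch and sucrose metabolism were examined in leaves of the medicinal herb Epimedium pubescens grown with and without phosphorus. The members were the 178 of 53813 listed genes whose annotation names a starch synthase, AGPase (glucose-1-phosphate adenylyltransferase), branching enzyme, isoamylase, amylase, glucanotransferase, another alpha-glucan enzyme, sucrose synthase, sucrose-phosphate synthase or phosphatase, invertase or fructofuranosidase. The annotation went against the collective name for 69 of them, because the word invertase also occurs in the name of a protein domain shared by pectinesterases, their inhibitors and invertase inhibitors. These 69 genes are called inhibitor-domain genes here and are described last. A further 107 genes carried the name of an enzyme of 1 of 11 classes, and the remaining 2 matched by a domain name alone, a pullulanase and a serine hydroxymethyltransferase.

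Leaves were compared in 4 groups of 3 libraries (replicates A, B and C), namely -P and +P leaves after 30 days (30d) and after 90 days (90d). The -P seedlings were irrigated with nutrient solution holding 0 mmol/L Pi and the +P seedlings with 1 mmol/L Pi, for 30 or 90 days in sand culture under the same light and temperature. The one-year-old seedlings came from a cultivation base and are not described as a defined line. Leaves showed no visible damage at 30 days and visible damage of -P plants at 90 days. The recipes of both solutions also differ in salts other than phosphate, so phosphorus and these salts cannot be told apart, nor can plant age and time under treatment. Replicates of a treatment were separate sets of seedlings, but how many plants went into a library, and whether leaves of both times came from the same sets, is not stated.

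Leaf starch is made in the chloroplast from ADP-glucose, which AGPase supplies, and starch synthases and branching enzymes build the chains and branch points. It is broken down again by water dikinases that loosen the granule, by beta-amylases that release maltose, and by debranching enzymes, glucanotransferases and phosphorylase. Sucrose is made in the cytosol by sucrose-phosphate synthase and is split by invertases or by sucrose synthase. AGPase is inhibited by inorganic phosphate, and leaves short of phosphorus are known for holding more starch in many species.

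Total counts lay between 14756971 and 18153463 per library, and light-harvesting (chlorophyll a-b binding) genes, which mark green leaf tissue, summed to 27547 to 94577 CPM (read counts scaled to a common library size after TMM normalization) over all libraries. The 2 listed genes of the Rubisco small subunit, another leaf marker, summed to only 6.24 to 30.0 CPM, and the Casparian strip genes of roots to at most 0.128 CPM. Summed CPM of 53 cyclin B and histone genes, markers of dividing cells, lay between 708 and 987 in all groups. Tests were run with edgeR on the 24307 genes that passed a filter on low counts, and a gene was called at an adjusted p of at most 0.05 with a log2 fold change of 1 or more in either direction. Of the 178 members, 94 passed the filter, 46 had no count in any library, and 38 had counts but did not pass. The tested members were 67 named enzymes, 26 inhibitor-domain genes and the pullulanase. Where copies of a gene are similar, their reads could have been divided between them in counting, so the values of single copies are uncertain. In whole leaves, fewer cells of a type and less RNA per cell cannot be told apart.

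Levels between genes were compared as FPKM (fragments per kilobase of gene, scaled for depth). Averaged over the 12 libraries, the sucrose synthase Ebr05G014040 was the most abundant enzyme with 792 FPKM, followed by the granule-bound starch synthase 1 (GBSS1, the enzyme of amylose) Ebr04G020710 with 691 FPKM. A single gene held 90.5% of the FPKM of all sucrose synthases, 83.7% of the sucrose-phosphate class (Ebr04G055270), 81.1% of the glucanotransferases (Ebr01G039360, DPE2, which handles maltose in the cytosol) and 75.3% of the starch synthases. Beta-amylase was the most divided class. Its highest member, the inactive beta-amylase 9 Ebr01G004090, held 21.7%, and 10 of its 22 genes reached 10 FPKM. The highest members of the other classes were the AGPase large subunit Ebr01G023580 (232 FPKM), the phosphorylase Ebr01G045000 (139 FPKM), the branching enzyme Ebr01G064020 (89.6 FPKM), the invertase Ebr03G069910 (69.3 FPKM), an alpha-amylase 3 gene on the reverse strand of chromosome 3 (569748630 to 569932909) that is known only from the authors' transcript assembly (68.4 FPKM) and the isoamylase Ebr05G039130 (26.9 FPKM).

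Summed over its genes, the starch synthase class had 1055 to 1693 FPKM in 90d -P and 835 to 1255 FPKM in 90d +P, against 580 to 782 FPKM in 30d -P and 412 to 853 FPKM in 30d +P. The branching enzymes had 194 to 262 FPKM in 90d -P, against 104 to 144 FPKM in 90d +P. At 30 days they had 147 to 173 FPKM in -P leaves, against 109 to 134 FPKM in +P leaves. In both pairs the 3 -P libraries lay above the 3 +P libraries. The beta-amylases had 527 to 608 FPKM in 30d -P, against 313 to 365 FPKM in 30d +P, but at 90 days the ranges overlapped, with 376 to 690 FPKM in -P and 393 to 630 FPKM in +P leaves. The sucrose synthases had 157 to 409 FPKM in 90d -P and 220 to 421 FPKM in 90d +P, against 1187 to 1662 FPKM in 30d -P and 714 to 1982 FPKM in 30d +P.

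**Figure D1:**
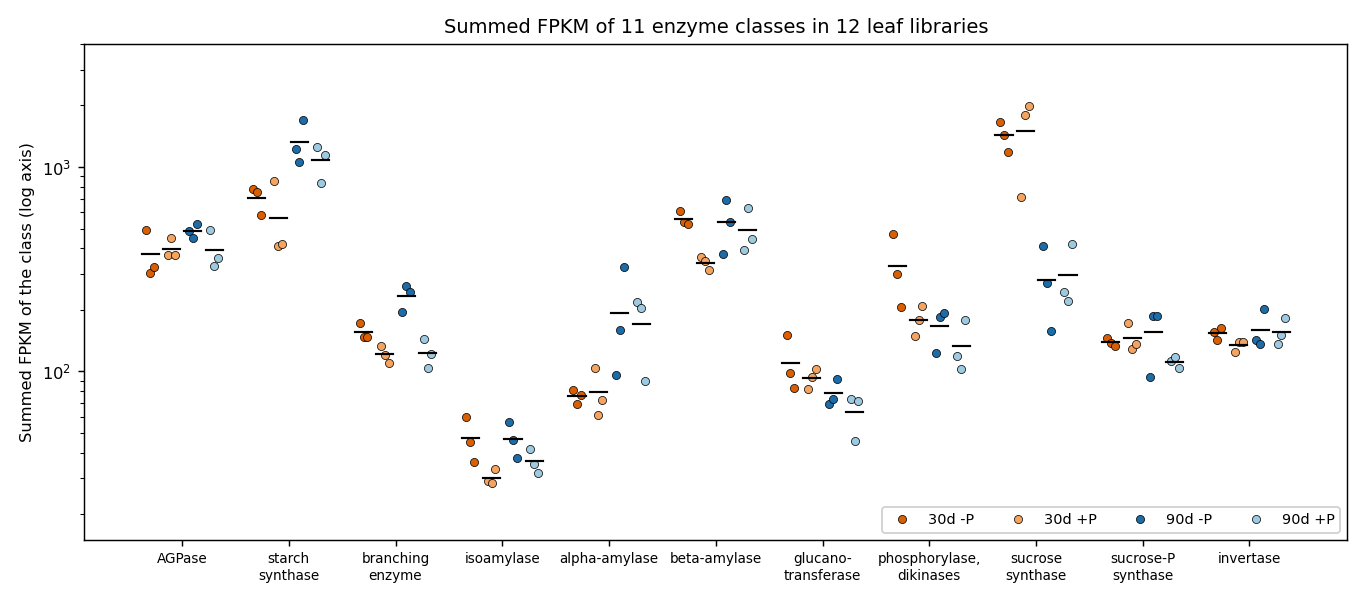
Summed FPKM of 11 enzyme classes (log axis), 1 point per library and a bar at the mean of 3, for -P and +P leaves at each time. The branching enzymes of -P leaves lie above those of +P leaves at both times, with 194 to 262 against 104 to 144 FPKM at 90 days, and the sucrose synthases of both treatments are lower at 90 days.

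Whether phosphorus deficiency alters these genes was asked at each time. No member was called by edgeR's quasi-likelihood test in 30d -P against 30d +P or in 90d -P against 90d +P, as in the background, where the share of all tested genes called was 0% at both times. At an unadjusted p under 0.05, without a fold change minimum, 8 members were higher and 2 lower in 30d -P, that is 8.51% and 2.13% of 94, beside 2.93% and 4.27% of all genes tested. In 90d -P, 10 members were higher and 5 lower by the same measure, or 10.6% and 5.32% of 94, beside 2.38% and 3.5% of all genes. DESeq2 on the 6 libraries of a comparison called 4 members higher and 2 lower in 30d -P (background 0.625% and 0.963%), and 2 higher and 0 lower in 90d -P (0.134% and 0.359%). DESeq2 on all 12 libraries called 0 higher and 1 lower at 30 days (background 0.264% and 0.468%), and 4 higher and 1 lower at 90 days (0.159% and 0.492%). Voom called 1 higher and 0 lower at 30 days (0.0329% and 0.132%) and none at 90 days (0% and 0%). The values below are therefore descriptions of libraries wherever no adjusted p of at most 0.05 is given.

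The median log2 fold change of the 67 named enzymes was 0.19 at 30 days and 0.25 at 90 days, beside -0.01 and -0.00 over all genes. At 30 days 44 of the 67 lay above 0 and 23 below, and at 90 days the counts were again 44 and 23. Of the 67, 31 lay above 0 and 10 below 0 at both times, so 41 kept their direction. The same count over all genes was not taken, so this is no sign that the same enzymes were raised at both times. CPM ranges of the groups did not overlap, with -P on the upper side, for 13 of 67 enzymes at 30 days (19.4%, beside 6.82% of all genes) and for 6 of 67 at 90 days (8.96%, beside 4.43%). With -P on the lower side there were 3 of 67 (4.48%, beside 8.34%) and 1 of 67 (1.49%, beside 4.49%).

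**Figure D2:**
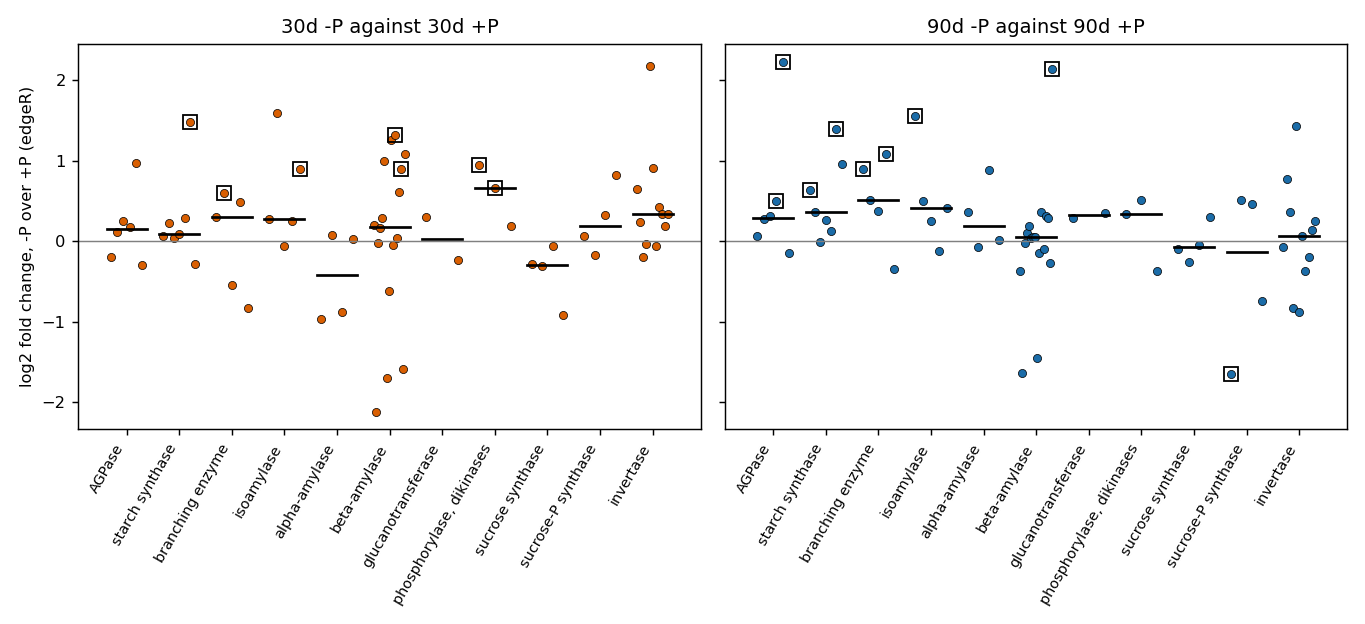
Log2 fold change of -P over +P leaves (edgeR) for the 67 tested enzymes by class, at 30 days on the left and 90 days on the right. Points are genes, bars are class medians, and squares mark an unadjusted p under 0.05, which 7 enzymes reach above 0 at 30 days, and 8 above and 1 below at 90 days; none passes the adjusted threshold.

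Among the genes of starch synthesis, the AGPase large subunit Ebr04G029750 (chromosome 4, 234758286 to 234769999) had the highest log2 fold change of the enzymes at 90 days. Its level was 308, 262 and 75.6 CPM in 90d -P, against 67.8, 38.4 and 31.1 CPM in 90d +P, so that its lowest -P library lay just above the highest +P library. The log2 fold change was 2.23 ± 0.52 (SE, n = 3 each; edgeR adjusted p = 0.552). At 30 days it had 51.2, 58.0 and 27.4 CPM in -P leaves, against 16.3, 25.0 and 28.3 CPM in +P leaves, and the ranges overlapped (0.97 ± 0.51, adjusted p = 0.718). DESeq2 on the 6 libraries called it at 90 days, with an adjusted p of 0.017, but voom did not. The main large subunit was Ebr01G023580, with 429 to 652 CPM in 90d -P and 405 to 603 CPM in 90d +P, and its ranges overlapped at 30 days as well. The weaker large subunit Ebr02G000340 had 12 to 17.8 CPM in 90d -P and 9.08 to 17.8 CPM in 90d +P.

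The AGPase small subunits carry the main catalytic site. Ebr03G002240 had 74.8, 70.1 and 82.8 CPM in 90d -P, against 57.4, 46.0 and 57.2 CPM in 90d +P, without overlap (log2 fold change 0.50 ± 0.17, unadjusted p = 0.014, edgeR adjusted p = 0.842). Ebr03G001820 had 37.8 to 48.7 CPM in 90d -P and 30.2 to 40.9 CPM in 90d +P, and Ebr06G059080 58.6 to 106 CPM and 60.3 to 130 CPM. The ranges of these last 2 genes overlapped at 30 days too.

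Branching enzymes put the branch points into amylopectin. Ebr06G024120 (chromosome 6, 189687434 to 189827266) had 232, 348 and 277 CPM in 90d -P, against 174, 116 and 112 CPM in 90d +P (log2 fold change 1.09 ± 0.23, edgeR adjusted p = 0.491). At 30 days it had 176, 147 and 132 CPM in -P leaves, against 115, 117 and 91.5 CPM in +P leaves (0.49 ± 0.23, adjusted p = 0.696). Neither pair overlapped. DESeq2 on 6 libraries called the gene at 90 days with an adjusted p of 0.042, but voom did not. The more abundant branching enzyme Ebr01G064020 (chromosome 1, 553156963 to 553272318) showed the smallest unadjusted p of all members in that comparison. It had 317, 395 and 404 CPM in 90d -P, against 213, 166 and 220 CPM in 90d +P (0.90 ± 0.17, unadjusted p = 0.00036, adjusted p = 0.433). At 30 days it had 314, 276 and 290 CPM in -P, against 262, 229 and 224 CPM in +P leaves, again without overlap (0.30 ± 0.17, adjusted p = 0.755). The third gene, Ebr02G036260, had 16.9, 16.5 and 17.8 CPM in 30d -P, against 14.7, 10.7 and 8.35 CPM in 30d +P (0.60 ± 0.27, adjusted p = 0.69), and overlapped at 90 days. The branching enzyme 3 gene Ebr03G009320 and an assembled one on chromosome 1 (388264168 to 388284278), with at most 2.5 CPM, overlapped at both times.

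Of 2 neighbouring GBSS1 genes on chromosome 4 (152975043 to 153222360), the libraries of both treatments were separate for the minor copy and overlapped for the major copy. Ebr04G020730, the minor copy, had 292, 700 and 557 CPM in 90d -P, against 227, 224 and 140 CPM in 90d +P (log2 fold change 1.39 ± 0.44, edgeR adjusted p = 0.825). At 30 days it had 72.5, 211 and 143 CPM in -P leaves, against 72.2, 42.4 and 38.1 CPM in +P leaves (1.48 ± 0.45, adjusted p = 0.61). The groups nearly met at 30 days. Voom called the gene there with an adjusted p of 0.045, but neither DESeq2 fit did. Ebr04G020710, the major copy, had 1090 to 2357 CPM in 90d -P and 1150 to 1924 CPM in 90d +P. The minor copy made up 13.9, 39.1 and 19.1% of the pair's CPM in 90d -P, against 10.6, 16.3 and 7.42% in 90d +P. Summed, the pair had 2094, 1790 and 2914 CPM in 90d -P, against 2151, 1374 and 1889 CPM in 90d +P. At 30 days the sum was 1259, 1262 and 882 CPM in -P leaves, against 1392, 598 and 603 CPM in +P leaves. The sums overlapped at both times. They do not depend on how reads were divided between the copies, but do depend on whether shared reads were counted, which is not given.

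The other starch synthases were the granule-bound starch synthase 2 Ebr03G064660, the soluble starch synthase 3 Ebr03G026530 and 3 genes named starch synthase 4, an enzyme that starts new granules in Arabidopsis. Of these, Ebr01G049520 had 25.0, 40.4 and 24.5 CPM in 90d -P, against 20.1, 17.2 and 20.3 CPM in 90d +P (0.64 ± 0.24, unadjusted p = 0.021, edgeR adjusted p = 0.842). The rest overlapped at both times, with log2 fold changes of -0.28 to 0.97.

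**Figure D3:**
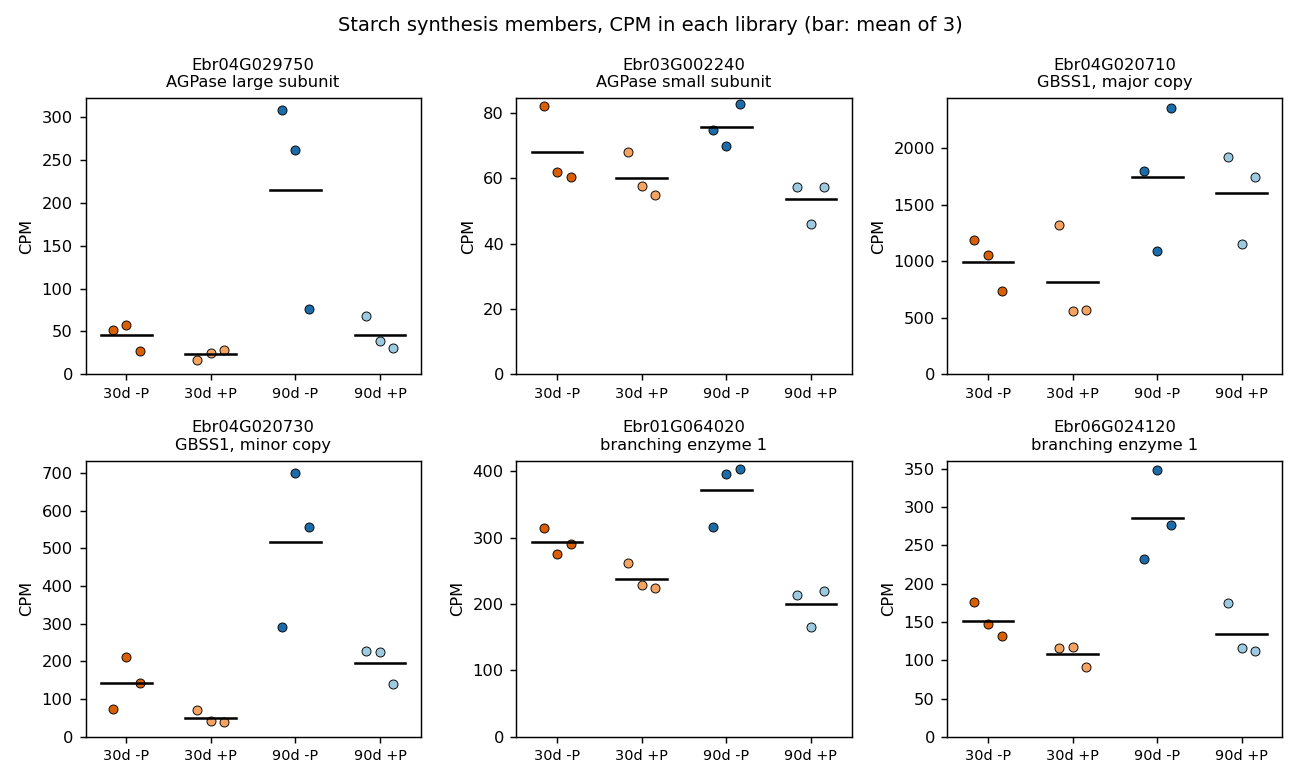
CPM of 6 starch synthesis genes in each library (points) with the mean of 3 (bars), for -P and +P leaves at each time. In 5 of these 6 picked genes the 90d -P libraries lie above all 90d +P libraries. The major GBSS1 copy Ebr04G020710 overlaps, with 1090 to 2357 against 1150 to 1924 CPM. Of the tested AGPase, starch synthase and branching enzyme genes not shown, only Ebr01G049520 lies apart in this way at 90 days. The others overlap, among them the main AGPase large subunit Ebr01G023580, with 429 to 652 against 405 to 603 CPM.

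Isoamylases remove branches, isoamylase 1 and 2 during synthesis and isoamylase 3 during breakdown in Arabidopsis. Ebr05G039130, the main isoamylase 3, had 92.4, 63.1 and 50.8 CPM in 30d -P, against 34.8, 36.0 and 40.1 CPM in 30d +P, with no overlap (log2 fold change 0.90 ± 0.27, unadjusted p = 0.0068, edgeR adjusted p = 0.61). At 90 days it had 48.0 to 79.9 CPM in -P and 37.9 to 59.2 CPM in +P leaves. The much weaker isoamylase 3 gene Ebr02G004920 had 4.38, 2.98 and 1.67 CPM in 90d -P, against 0.849, 1.67 and 0.54 CPM in 90d +P (1.55 ± 0.59, unadjusted p = 0.024, adjusted p = 0.842), and the ranges met at 1.67 CPM. A further isoamylase 3 gene, Ebr03G022580, had at most 1.65 CPM. Isoamylase 1 (Ebr05G003000) and isoamylase 2 (Ebr05G011810) overlapped at both times.

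Beta-amylase 3 is the chief maltose-forming enzyme of leaf starch breakdown in Arabidopsis. In E. pubescens 7 beta-amylase 3 genes lay in a run on the forward strand of chromosome 4 (64920004 to 65270602), the last of them (65267603 to 65270602) known only from the transcript assembly and called the assembled copy here. In 30d -P, 4 of the 7 lay above 30d +P in every library, as did 6.82% of all genes tested. Similar copies could share reads, so the 7 are not separate observations. Ebr04G008880, the strongest, had 457, 279 and 207 CPM in 30d -P, against 154, 113 and 112 CPM in 30d +P (1.31 ± 0.40, unadjusted p = 0.0077, edgeR adjusted p = 0.61). The assembled copy had 90.8, 79.2 and 90.3 CPM, against 42.1, 42.6 and 37.8 CPM (1.09 ± 0.56, adjusted p = 0.714). These copies lay apart from the +P leaves in all 3 replicates. Ebr04G008860 had 72.4, 93.6 and 126 CPM, against 35.5, 42.8 and 43.5 CPM (1.26 ± 0.71, adjusted p = 0.749). Ebr04G008830 had 30.1, 31.9 and 41.7 CPM, against 17.5, 19.1 and 15.3 CPM (1.00 ± 0.49, adjusted p = 0.701). These 4 genes are the ones DESeq2 on 6 libraries called higher, with adjusted p of 1.2e-05 to 0.024. No other setting called them, as DESeq2 on all 12 libraries called 0 members higher at 30 days. The 1 higher call of voom was the minor GBSS1 copy.

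The other 3 copies did not lie above 30d +P in every library. Ebr04G008840 had at most 0.646 CPM in 30d -P, against 1.27 to 2.04 CPM in 30d +P. Ebr04G008850 had at most 4.61 CPM and Ebr04G008870 6.86 to 12.3 CPM in all 30-day libraries, and both overlapped. Summed over the 7 copies, the run had 663, 492 and 478 CPM in 30d -P, against 264, 233 and 219 CPM in 30d +P. The sum does not depend on how reads were divided among the copies. It does depend on whether shared reads were counted, which is not given.

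At 90 days the copies differed from each other. The assembled copy had 32.9, 266 and 208 CPM in 90d -P, against 54.0, 27.1 and 34.0 CPM in 90d +P, with replicate A of -P inside the +P range (log2 fold change 2.14 ± 0.58, unadjusted p = 0.0039, edgeR adjusted p = 0.767). Ebr04G008860 had 13.8, 8.34 and 17.9 CPM, against 8.18, 14.4 and 86.7 CPM (-1.45 ± 0.71, adjusted p = 0.857). Without 90d +P replicate C, the library with 86.7 CPM, its log2 fold change was 0.24. Ebr04G008880 had 153 to 225 CPM in -P and 91.7 to 231 CPM in +P, and Ebr04G008830 9.19 to 22.5 CPM and 5.35 to 26.7 CPM. The assembled copy made up 13.5, 58.0 and 44.4% of the run's CPM in 90d -P, against 30.3, 15.5 and 9.06% in 90d +P, and 13.7 to 18.9% in the 6 libraries of 30 days. The run summed to 244, 459 and 469 CPM in 90d -P, against 178, 175 and 376 CPM in 90d +P, so the sums overlapped.

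**Figure D4:**
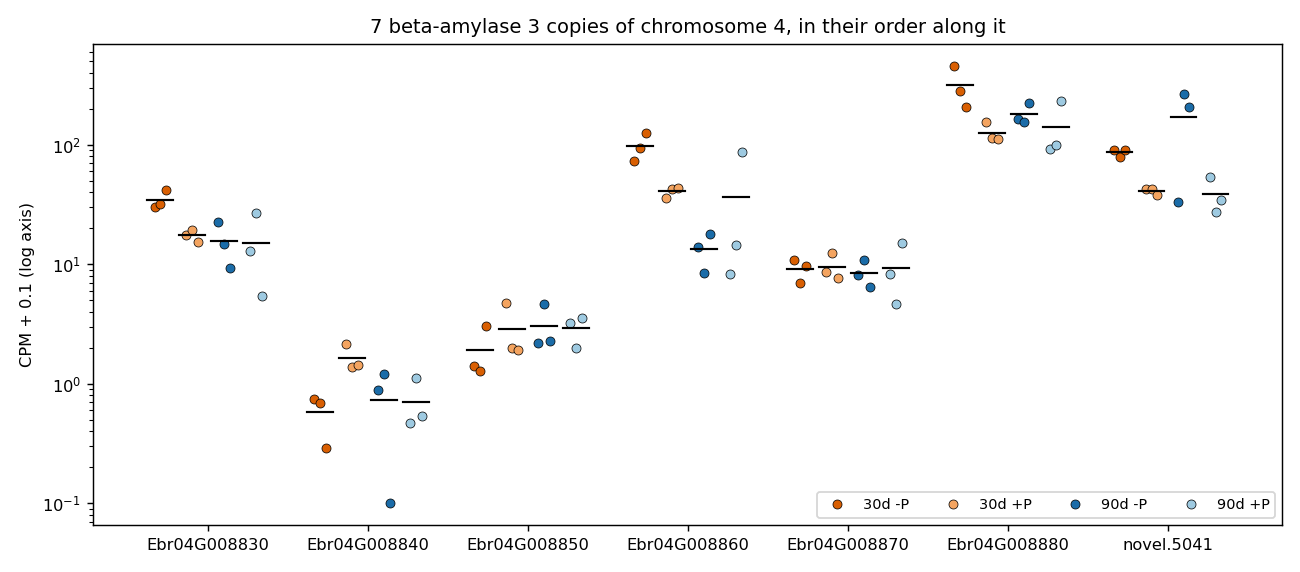
CPM (plus 0.1, log axis) of the 7 beta-amylase 3 copies in their order along chromosome 4, 1 point per library and a bar at the mean of 3. Ebr04G008830, Ebr04G008860, Ebr04G008880 and the assembled copy (rightmost) lie higher in all 30d -P than in all 30d +P libraries; the assembled copy reaches 266 and 208 CPM in 2 of the 90d -P libraries.

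The plastid beta-amylase 1 genes Ebr06G015220 and Ebr06G015230 lie next to each other on chromosome 6 (108117013 to 108254341). Ebr06G015230 had 195, 152 and 97.2 CPM in 30d -P, against 59.1, 103 and 75.5 CPM in 30d +P, with overlapping ranges (0.90 ± 0.34, unadjusted p = 0.022, edgeR adjusted p = 0.667). Ebr06G015220 had 102 to 169 CPM, against 72.3 to 104 CPM, and both overlapped at 90 days. An assembled beta-amylase gene on chromosome 2 (306043216 to 306048484), named for a wheat enzyme, had 0.933, 8.43 and 14.5 CPM in 30d -P, against 34.1, 17.5 and 20.6 CPM in 30d +P, on the lower side (-1.59 ± 0.75, adjusted p = 0.696). Among the inactive or regulatory forms, beta-amylase 8 (Ebr04G000670) had 36.0, 31.6 and 30.9 CPM in 30d -P, against 29.5, 23.2 and 27.6 CPM in 30d +P. Beta-amylases 4, 7 and 9 (Ebr03G004800, Ebr05G063340 and Ebr01G004090) and Ebr03G023450 overlapped at both times, as did Ebr02G001380, a beta-amylase 3 gene outside the run with at most 1.88 CPM.

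Alpha-glucan water dikinase phosphorylates starch at the granule surface, and the H isozyme of phosphorylase acts on glucans in the cytosol. The phosphorylase Ebr01G045000 had 1152, 745 and 480 CPM in 30d -P, against 335, 418 and 476 CPM in 30d +P, with the nearest libraries almost equal (0.95 ± 0.39, unadjusted p = 0.035, edgeR adjusted p = 0.68). The dikinase Ebr03G055660 had 420, 273 and 226 CPM, against 166, 183 and 235 CPM, with overlap (0.65 ± 0.29, unadjusted p = 0.044, adjusted p = 0.684). Both overlapped at 90 days, as did the second dikinase Ebr04G037370 at both times. DPE2 (Ebr01G039360) had 228 to 396 CPM in 30d -P and 229 to 264 CPM in 30d +P, and the plastid glucanotransferase Ebr05G064140 18.6 to 33.4 CPM and 18.8 to 33.2 CPM.

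In 30d -P, replicate A was the highest library for the phosphorylase, the dikinase, DPE2, Ebr04G008880, Ebr06G015230 and Ebr05G039130 alike, and replicate C the lowest. Without replicate A of 30d -P the log2 fold changes of the same comparison were the lowest of their left-out range for the phosphorylase (0.58) and the dikinase (0.36), and remained above 0.

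The alpha-amylases overlapped at both times in 3 of 4 tested genes. The assembled alpha-amylase 3 gene had 164 to 227 CPM in 30d -P and 138 to 232 CPM in 30d +P. Replicates of Ebr03G004260 lay far apart, with 12.3, 74.3 and 263 CPM in 90d -P, against 145, 120 and 6.53 CPM in 90d +P. Ebr0G017820 had 0.359, 3.92 and 3.76 CPM in 30d -P, against 4.35, 5.17 and 5.34 CPM in 30d +P, without overlap (-0.88, edgeR adjusted p = 0.85).

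On the sucrose side, the main sucrose synthase Ebr05G014040 had log2 fold changes of -0.07 at 30 days and -0.05 at 90 days, and all 4 sucrose synthases overlapped at both times. The main sucrose-phosphate synthase Ebr04G055270 had 273, 559 and 607 CPM in 90d -P, against 347, 323 and 334 CPM in 90d +P, with overlap. Ebr05G011760 and an assembled sucrose-phosphate synthase 3 gene overlapped at both times. The weak sucrose-phosphate synthase 2 gene Ebr02G032840 was the only enzyme whose 90d -P libraries all lay below 90d +P. It had 1.28, 1.10 and 0.802 CPM in 90d -P, against 3.03, 2.69 and 4.32 CPM in 90d +P (-1.65 ± 0.43, unadjusted p = 0.0028, edgeR adjusted p = 0.697). DESeq2 on all 12 libraries called it lower with an adjusted p of 0.011, but DESeq2 on the 6 libraries and voom did not. At 30 days it had 1.37 to 2.15 CPM in -P and 1.42 to 2.14 CPM in +P leaves.

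Of the 11 tested invertases, none reached an unadjusted p under 0.05 in either phosphorus comparison. Ebr02G005360, a weak alkaline/neutral invertase, had 3.30, 3.27 and 1.47 CPM in 30d -P, against 0.527, 0.975 and 0.267 CPM in 30d +P (2.17 ± 1.03, unadjusted p = 0.061, edgeR adjusted p = 0.696). Ebr02G009270 had 0.933, 1.05 and 1.28 CPM, against 0.527, 0.60 and 0.601 CPM. The main invertase Ebr03G069910 had 85.1 to 112 CPM in 30d -P and 87.1 to 106 CPM in 30d +P. Cell-wall invertases (insoluble beta-fructofuranosidases) were weak, with 3 tested genes of a run of 4 on chromosome 1 (531675408 to 531875164) at 4.44 to 31.2 CPM in all libraries. The vacuolar invertase Ebr04G014310 had 5.23 to 9.31 CPM in 90d -P and 1.39 to 23.8 CPM in 90d +P.

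Whether these genes differ between 90 and 30 days was asked in each treatment. In 90d -P against 30d -P, edgeR called 3 members higher and 9 lower, or 3.19% and 9.57% of 94, beside 1.63% and 3.95% of all genes tested. Of these calls, 2 higher and 2 lower were enzymes (2.99% each of 67), and the others were inhibitor-domain genes. In 90d +P against 30d +P, 1 member was called higher and 3 lower (1.06% and 3.19% of 94), beside 0.843% and 2.18% of all genes. Among these, 1 higher and 1 lower call were enzymes (1.49% each of 67). The enzyme shares were near the background in both treatments. CPM ranges did not overlap for 13 members higher and 30 lower in 90d -P (beside 15.3% and 18% of all genes), and for 11 higher and 24 lower in 90d +P (beside 11.7% and 14.3%). DESeq2 on 6 libraries called 7 higher and 16 lower in -P (background 2.85% and 6.41%) and 4 higher and 14 lower in +P leaves (1.89% and 4.2%). DESeq2 on all 12 libraries called 7 higher and 15 lower in -P (2.79% and 5.59%) and 2 higher and 15 lower in +P leaves (2.03% and 4.17%). Voom called 5 higher and 8 lower in -P (3.38% and 5.52%) and 4 higher and 10 lower in +P leaves (3.02% and 5.11%). The median log2 fold change of the enzymes was 0.15 in -P and -0.06 in +P leaves, beside 0.03 and 0.02 over all genes. The light-harvesting genes, as markers of green tissue, summed to 27547 to 54868 CPM in 90d +P, against 62075 to 94577 CPM in 30d +P, without overlap, and to 32399 to 59819 CPM in 90d -P, against 57717 to 69855 CPM in 30d -P, with overlap. Of 61 such genes 52 were tested and 3 had no count, with 0 called in -P and 1 called lower in +P leaves. The 2 Rubisco small subunit genes went the other way in -P leaves. They summed to 18.8 to 30.0 CPM in 90d -P, against 12.1 to 18.3 CPM in 30d -P, without overlap. In +P leaves they overlapped, with 6.24 to 30.0 CPM at 90 days, against 11.4 to 28.3 CPM at 30 days. The part of green tissue in the time differences was not tested.

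The sucrose synthase Ebr05G014040 (chromosome 5, 93418853 to 93424396) fell in both treatments. It had 929, 456 and 169 CPM in 90d -P, against 4502, 3958 and 3263 CPM in 30d -P, with a log2 fold change of -2.92 ± 0.70 (edgeR adjusted p = 0.0394). In +P leaves it had 396, 248 and 964 CPM at 90 days, against 1837, 4946 and 5486 CPM at 30 days (-2.93 ± 0.70, adjusted p = 0.0494). Sucrose synthase is known to supply UDP-glucose for cellulose, and the 86 laccase and secondary-wall cellulose synthase genes that mark vascular tissue summed to 450, 249 and 94.9 CPM in 90d -P, against 5121, 3489 and 2316 CPM in 30d -P. In +P leaves they summed to 205, 138 and 378 CPM at 90 days, against 1355, 3290 and 3205 CPM at 30 days. Of this list 54 genes were tested and 11 had no count, with 5 called lower and 0 higher in -P and 3 lower and 0 higher in +P leaves. Over all genes tested, 3.95% were called lower in -P and 2.18% in +P leaves. In each group the library with the lowest sum of this list was also the lowest for Ebr05G014040. The part of vascular tissue in the fall was not tested.

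By contrast the second sucrose synthase Ebr01G006840 had 250, 330 and 291 CPM in 90d -P, against 106, 151 and 174 CPM in 30d -P (1.02 ± 0.30, edgeR adjusted p = 0.0659). In +P leaves it had 304, 382 and 245 CPM at 90 days, against 250, 124 and 150 CPM at 30 days (0.83 ± 0.30, adjusted p = 0.132).

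The minor GBSS1 copy Ebr04G020730 rose in both treatments. Its level was 292, 700 and 557 CPM in 90d -P, against 72.5, 211 and 143 CPM in 30d -P (1.86 ± 0.45, edgeR adjusted p = 0.0402). In +P leaves it was 227, 224 and 140 CPM at 90 days, against 72.2, 42.4 and 38.1 CPM at 30 days (1.95 ± 0.45, adjusted p = 0.0461), without overlap in either treatment. The major copy Ebr04G020710 had 1802, 1090 and 2357 CPM in 90d -P, against 1186, 1051 and 738 CPM in 30d -P (0.82, adjusted p = 0.239), and 0.98 in +P leaves (adjusted p = 0.191). The granule-bound starch synthase 2 Ebr03G064660 had 224, 197 and 299 CPM in 90d -P, against 99.7, 111 and 168 CPM in 30d -P (0.92 ± 0.25, adjusted p = 0.0507). In +P leaves it had 196, 163 and 241 CPM, against 129, 114 and 113 CPM (0.75 ± 0.24, adjusted p = 0.104). Starch synthase 4 gene Ebr03G031730 went the other way, with 62.1 to 77.7 CPM in 90d -P, against 91.2 to 102 CPM in 30d -P (-0.43 ± 0.16, adjusted p = 0.131).

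The AGPase large subunit Ebr04G029750 rose in -P leaves, to 308, 262 and 75.6 CPM in 90d -P, against 51.2, 58.0 and 27.4 CPM in 30d -P (2.24 ± 0.52, edgeR adjusted p = 0.0368). In +P leaves its log2 fold change was 0.98 ± 0.51 (adjusted p = 0.293). The branching enzyme Ebr06G024120 passed the adjusted threshold but not the fold change minimum in -P leaves (0.92 ± 0.23, adjusted p = 0.0442), and had 0.32 ± 0.23 in +P leaves (adjusted p = 0.47). Ebr01G064020 had 0.34 in -P and -0.26 in +P leaves. The branching enzyme 3 gene Ebr03G009320 had 22.8, 20.9 and 23.6 CPM in 90d -P, against 3.52, 7.71 and 11.2 CPM in 30d -P (1.59 ± 0.53, adjusted p = 0.0986).

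Of the beta-amylase 3 run, Ebr04G008860 fell in -P leaves, to 13.8, 8.34 and 17.9 CPM in 90d -P, against 72.4, 93.6 and 126 CPM in 30d -P (-2.86 ± 0.75, edgeR adjusted p = 0.0486). In +P leaves the same gene had a log2 fold change of -0.15 (adjusted p = 0.929), with 8.18, 14.4 and 86.7 CPM at 90 days, against 35.5, 42.8 and 43.5 CPM at 30 days. The neighbouring copies had -1.16 (Ebr04G008830), -0.80 (Ebr04G008880) and 0.96 (the assembled copy) in -P leaves, none called. Phosphorylase (-1.08 ± 0.39, adjusted p = 0.123), DPE2 (-0.72 ± 0.25, adjusted p = 0.111) and the dikinase Ebr03G055660 (-0.73 ± 0.29, adjusted p = 0.142) were not called either. In +P leaves DPE2 had the same -0.72, and its ranges did not overlap in either treatment.

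Further enzymes were not called. The alpha-amylase Ebr03G004260 had 12.3, 74.3 and 263 CPM in 90d -P, against 0.287, 5.42 and 14.2 CPM in 30d -P (4.13 ± 1.55, edgeR adjusted p = 0.13). The assembled wheat-type beta-amylase of chromosome 2 had 66.5, 47.7 and 18.8 CPM, against 0.933, 8.43 and 14.5 CPM (2.47 ± 0.77, adjusted p = 0.0792). The inactive beta-amylase 9 Ebr01G004090 had 223, 611 and 167 CPM in 90d +P, against 138, 62.1 and 81.5 CPM in 30d +P (1.83 ± 0.63, adjusted p = 0.122). The alkaline/neutral invertase Ebr04G052760 had 20.1, 19.4 and 14.7 CPM in 90d -P, against 54.7, 37.6 and 32.3 CPM in 30d -P (-1.20 ± 0.37, adjusted p = 0.0761), and the main invertase Ebr03G069910 124, 120 and 171 CPM, against 85.1, 86.7 and 112 CPM (0.55 ± 0.21, adjusted p = 0.129).

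**Figure D5:**
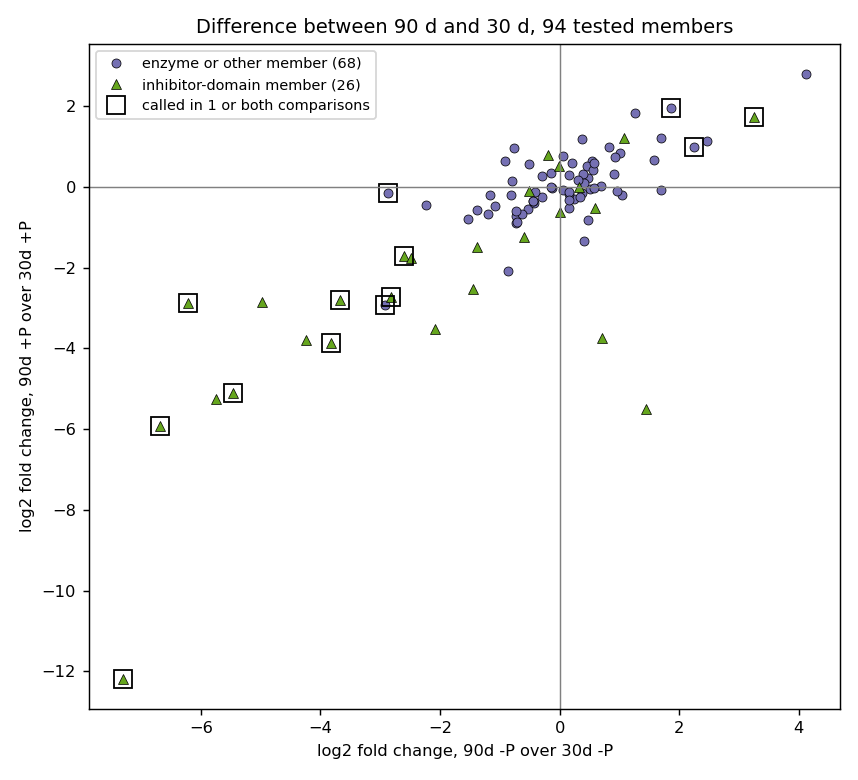
Log2 fold change between 90 and 30 days of the 94 tested members, in -P leaves (horizontal) and in +P leaves (vertical), which share no library. Squares mark members called in 1 or both; 40 members lie below 0 and 27 above 0 in both treatments, and the inhibitor-domain genes (triangles) reach the lowest values.

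Across the 67 enzymes the time differences of both treatments, which rest on separate libraries, had a Pearson r of 0.70 (genes are not independent replicates), with 24 above 0 and 23 below 0 in both. The phosphorus differences at 30 and 90 days had an r of 0.33. The calls with time were close to the threshold. In -P leaves each of the 12 calls was lost without at least 1 library, with adjusted p of up to 0.0589 to 0.155. The count of calls there was 0 without 90d -P replicate B, 1 without 30d -P replicate A or B, 2 without 90d -P replicate C, 3 without 30d +P replicate C, 4 without 30d +P replicate B, 6 without 90d -P replicate A or 90d +P replicate A, and 10 to 14 without any of the others. In +P leaves the 4 calls became 0 without 30d +P replicate B or C or 90d +P replicate A or B, 1 without 30d -P replicate B, 2 without 90d -P replicate B, 3 to 5 without 30d -P replicate A or C or 90d -P replicate A or C, 8 without 90d +P replicate C and 13 without 30d +P replicate A.

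Whether the phosphorus difference itself depended on time was tested as an interaction, for which edgeR called none of the 94 members and 0% of all genes. At an unadjusted p under 0.05, 1 member was above 0 and 2 below (1.06% and 2.13%, beside 1.56% and 1.41% of all genes). Voom also called none (background 0% and 0%), and DESeq2 on all 12 libraries 1 higher (0.0288% of all genes higher and 0.0601% lower), the inhibitor-domain gene Ebr02G012510. The 3 members were Ebr02G032840 (-1.72 ± 0.59, unadjusted p = 0.015), Ebr04G008860 (-2.71 ± 1.01, unadjusted p = 0.022) and Ebr01G064020 (0.60 ± 0.24, unadjusted p = 0.033), with edgeR adjusted p of 1. The value of Ebr04G008860 leans on 90d +P replicate C, with 86.7 CPM, against 8.18 and 14.4 CPM in replicates A and B. Without that library its phosphorus difference at 90 days turned round, as given above. For the AGPase large subunit Ebr04G029750 the interaction was 1.26 ± 0.71 (unadjusted p = 0.11), so the larger value at 90 days was not shown to differ from that at 30 days.

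The inhibitor-domain genes include pectinesterases, which demethylate cell wall pectin, and proteins that inhibit them or invertases. Of 26 tested, 7 were called lower and 1 higher in 90d -P against 30d -P (26.9% and 3.85%, beside 3.95% and 1.63% of all genes). In 90d +P against 30d +P, 2 were called lower and 0 higher (7.69% and 0%, beside 2.18% and 0.843%). The median log2 fold changes were -1.77 in -P and -2.63 in +P leaves, beside 0.03 and 0.02 over all genes. The summed level of the laccase and secondary-wall cellulose synthase list was lower at 90 days as well, with 94.9 to 450 CPM in 90d -P, against 2316 to 5121 CPM in 30d -P, and 138 to 378 CPM in 90d +P, against 1355 to 3290 CPM in 30d +P. Its part in the values of the inhibitor-domain genes was not tested. Pectinesterase 3 gene Ebr02G028260 had the smallest p of all members, with 29.0, 20.4 and 9.0 CPM in 90d -P, against 424, 213 and 195 CPM in 30d -P (-3.83 ± 0.56, edgeR adjusted p = 0.0129). In +P leaves it had 15.6, 23.4 and 10.9 CPM, against 127, 291 and 309 CPM (-3.87 ± 0.56, adjusted p = 0.0203). The 21 kDa protein gene Ebr05G054470 had 0, 0 and 0.324 CPM in 90d +P, against 75.1, 670 and 907 CPM in 30d +P (adjusted p = 0.0349). In -P leaves the lowest log2 fold changes among the calls were those of Ebr03G039820 (-6.68), Ebr01G006040 (-6.21), Ebr01G043050 (-5.47) and Ebr02G028260, and the call on the higher side was Ebr02G028120 (3.25 ± 0.81, adjusted p = 0.043), with 11.1, 5.78 and 22.3 CPM in 90d -P, against 2.37, 1.11 and 0.638 CPM in 30d -P. The pectinesterase inhibitor 6 gene Ebr01G006010 also fell in -P leaves (-2.60 ± 0.54, adjusted p = 0.0278). The most abundant of the group, Ebr02G026620 (1134 FPKM), had 399, 371 and 17.9 CPM in 90d -P, against 1722, 5393 and 7799 CPM in 30d -P (-4.24 ± 1.24, adjusted p = 0.0657).

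Between treatments these genes gave no edgeR call. Ebr01G009620, known by the domain alone, had 7.61, 9.41 and 10.7 CPM in 30d -P, against 3.10, 4.72 and 4.67 CPM in 30d +P (1.15 ± 0.33, adjusted p = 0.61). Ebr05G025700 had 0.718, 0.85 and 0.956 CPM, against 1.98, 10.3 and 11.2 CPM (-3.20 ± 0.92, adjusted p = 0.61). Among the putative invertase inhibitors, Ebr04G008070 had 0.359, 0.0654 and 0.128 CPM in 30d -P, against 3.43, 2.55 and 2.14 CPM in 30d +P (-3.84 ± 1.5, adjusted p = 0.68). Ebr05G025710 had 1.79 to 3.59 CPM, against 4.01 to 4.8 CPM. Ebr02G012510 had reads at 90 days in 1 library alone, with 24.5 CPM in 90d -P replicate B and 0 in the other 5.

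A companion list of neighbouring steps (trehalose phosphate, hexose phosphates, hexokinases, plastid transporters and others) held 106 genes, of which 61 were tested. None was called between treatments by edgeR, and none was called higher with time. However, 4 were called lower in -P leaves (6.56%, beside 3.95% of all genes) and 3 in +P leaves (4.92%, beside 2.18%). The calls of both treatments include Ebr03G034150, named UDP-N-acetylglucosamine diphosphorylase 1, with -1.52 in -P (edgeR adjusted p = 0.0314) and -1.55 in +P leaves (0.0361). It acts on an amino sugar and came into the list by its name alone. Fructokinase-2 gene Ebr02G031250, which phosphorylates the fructose that sucrose synthase frees, had 154, 150 and 137 CPM in 90d -P, against 653, 637 and 485 CPM in 30d -P (-2.01 ± 0.36, edgeR adjusted p = 0.0196), and fell in +P leaves too (-2.79 ± 0.37, adjusted p = 0.0186). The plastid glucose 6-phosphate translocator Ebr03G024750 fell in -P leaves (-1.39 ± 0.32, adjusted p = 0.0349), as did UDP-sugar pyrophosphorylase Ebr01G054290 (-1.30 ± 0.18, adjusted p = 0.0129). The pullulanase Ebr06G022710, a debranching enzyme, had 41.8 to 78.1 CPM in 90d -P and 37.3 to 55.0 CPM in 90d +P.

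Members below the filter were weak throughout. The highest of the 38 was Ebr02G050380, a cell-wall invertase gene, with 2.16 CPM in 90d +P replicate C. Of the 15 sucrose synthase genes 11 were untested, 5 of them without a count, and of the 23 invertase genes 12.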

How the data were processed

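RNA-seq of 12 leaf libraries was used. The authors aligned reads to the E. pubescens genome with HISAT2 2.0.5 and added transcripts with StringTie 1.3.3b. The submitters' processing notes also name featureCounts 1.5.0-p3. The build name, strand and handling of shared reads are not given in the sources used here. The deposited counts are whole reads per gene without normalization. The deposited FPKM are the same counts per length, scaled by the authors, with implied library sizes of 0.887 to 1.17 times the total count. FPKM served for levels between genes and for the class sums, which were also compared between groups. Single genes were compared between groups as CPM.

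edgeR 4.0.16 in R 4.3.3 was run with TMM normalization, filterByExpr on the 4 groups and a robust quasi-likelihood fit of all 12 libraries (8 residual degrees of freedom, biological coefficient of variation 0.6), with Benjamini-Hochberg adjustment over all 24307 genes tested. The ± after a log2 fold change is its standard error, obtained by dividing its size by the root of the F statistic. DESeq2 1.42.0 and limma 3.58.1 (voom) were alternatives. Voom, both DESeq2 fits and edgeR with TMM (on all 12 libraries, with a replicate block and on 2 groups alone) were tested on simulated data. The RLE, filter and left-out settings were not. Replicates of a group differed by an average chi-square per gene of 25.3 to 133, more than counting noise, so no library was taken for a second deposit of another.

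Members, lists and tests were chosen with earlier results of these data known. Genes were named where they were 1 of 8 genes given with the set or listed for this pathway in the study's supplement (chosen on these libraries, so no independent evidence), the most abundant of a class, up to 4 called members per direction with the largest change, or among the 3 smallest p in each test. All other genes were named after their values were seen. The inhibitor-domain class was set apart after the annotation was seen. Neighbouring genes of a class within 500000 bases were called a run.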

Additional observations from a re-analysis of the deposited data

How the results depend on the processing

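Of 2154 values of single genes under the alternatives, 1891 kept their direction and side of the threshold. A further 105 passed it newly, 153 no longer passed it and 5 turned round, and the cause was not tested. The values belong to 108 pairs of gene and comparison, of which only the 12 calls in -P and 4 calls in +P leaves between times could be lost. All 153 losses fall on those calls. Most of the 1891 come from pairs that were not called, so they do not show that the calls were stable. No member was called between treatments, or for the interaction, under RLE size factors, no fold change minimum, either filter setting, the replicate block or any left-out library. DESeq2 on the 6 libraries called 6 members at 30 days and 2 at 90 days between treatments, and 23 in -P and 18 in +P leaves between times. DESeq2 on all 12 libraries called 1, 5, 22 and 17 in the same order, and 1 for the interaction. Voom called 1 at 30 days between treatments and 14 between times in +P leaves. Between times, 12 calls in -P and 4 in +P leaves became 6 and 2 without a filter on low counts, 3 and 0 with edgeR on the 2 groups alone, and ranged over 0 to 14 and 0 to 13 with 1 library left out.

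Whether the replicate letters pair the libraries was not settled. Of 12 same-letter correlations of deviations (-0.19 to 0.23), 4 exceeded 0.1, all of them between times. They were 0.19 and 0.23 in -P and 0.15 and 0.11 in +P leaves, where different-letter correlations also reached 0.19 and 0.11. With the letter as a replicate block, 1 member was called between times in -P and 0 in +P leaves.

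With 1 library left out, the log2 fold change of Ebr02G004920 at 30 days ranged from -0.0090 (without 30d -P replicate A) to 0.63, that of Ebr04G008830 at 90 days from -0.36 (without 90d +P replicate C; -0.33 without 90d -P replicate A and -0.05 without 90d +P replicate A) to 0.75, and that of Ebr04G008860 at 90 days from -1.92 to 0.24 (without 90d +P replicate C). Whether depth or the spread between replicates limited these values was not tested.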
